A study of Homo sapiens with 6 samples.

Results

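The regions described are intergenic H3K27ac peaks that lay close to the start of a protein-coding gene in SU-CCS-1 cells. A peak was a member if it overlapped no gene of any type in GENCODE version 44, lay more than 3000 bases from every transcript start, and had its nearer edge at most 50000 bases from the start of a transcript of a protein-coding gene. Of 30784 peaks in the list, 2111 (6.86%) met the rule. A member was called upstream when it lay on the 5′ side of its nearest coding gene, which held for 1284 peaks, and downstream when it lay past the 3′ end of that gene, which held for 827 peaks. The remaining peaks were 18856 within 3000 bases of a start site (promoter-associated), 8307 inside genes and away from starts (intragenic) and 1510 intergenic peaks beyond the 50000-base limit.

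SU-CCS-1 is an established human clear cell sarcoma (CCS) line that carries the EWSR1::ATF1 fusion, and its chromatin was immunoprecipitated with an antibody to histone H3 acetylated at lysine 27 (H3K27ac). There were 3 H3K27ac samples and 3 input samples of the same line, with no second genotype, treatment or time point. The samples entered 1 merged list of peak positions on hg38, which gives no height, score, depth or value per replicate. No spread between replicates could therefore be measured and no test was made: every interval below is a 95% interval that covers counting alone, and neighbouring peaks of 1 list are not independent. As a check of the cell label, all 6 melanocytic marker genes read (MITF, SOX10, PMEL, MLANA, DCT and S100B) had a peak within 3000 bases of a start, as 63.4% of all 20007 coding genes did. Of a longer list of 32 melanocyte and neural crest genes, 21 had one, and the melanin synthesis gene TYRP1 had none.

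H3K27ac is deposited by the acetyltransferases p300 and CBP and is found at active promoters and at active enhancers, many of which lie outside genes and act on a promoter at a distance. ATF1, the 3′ partner in the fusion, contributes a leucine zipper region that recognises the cAMP response element (CRE), while the related FOS and JUN proteins bind the AP1 element. Distance to a gene is only a guide to the gene an enhancer acts on, since enhancers can skip the nearest promoter.

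Sequences of 6 members near genes of the ATF/CREB, AP1, cAMP and melanocytic lists are printed to show where a CRE or AP1 element sat, with 50 bases on either side. Capitals mark every occurrence of the element in the stretch, TGACGTCA for the CRE at FOSL2 and SIK1 and, at the other genes, the AP1 element TGAGTCA, which reads TGACTCA where it lies on the other strand. All coordinates are hg38, all sequences are of the + strand, and none lies in an annotated GENCODE gene. The members near FOSL2, JUND, EDNRB, PPARGC1A and PDE10A that hold these stretches overlapped a RefSeq gene, and the SIK1 member overlapped none.
FOSL2, upstream, chr2:28359344-28359451: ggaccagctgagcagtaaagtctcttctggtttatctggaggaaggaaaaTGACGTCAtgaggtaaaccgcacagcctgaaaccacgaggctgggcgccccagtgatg
SIK1, upstream, chr21:43442020-43442127: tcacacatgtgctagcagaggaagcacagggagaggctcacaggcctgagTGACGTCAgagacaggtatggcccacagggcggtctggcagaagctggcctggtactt
JUND, upstream, chr19:18293564-18293670: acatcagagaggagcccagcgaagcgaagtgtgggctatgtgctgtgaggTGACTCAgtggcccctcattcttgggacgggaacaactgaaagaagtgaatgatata
EDNRB, downstream, chr13:77854070-77854176: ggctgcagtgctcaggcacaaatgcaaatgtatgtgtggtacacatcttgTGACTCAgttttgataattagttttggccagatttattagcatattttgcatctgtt
PPARGC1A, upstream, chr4:23945837-23945943: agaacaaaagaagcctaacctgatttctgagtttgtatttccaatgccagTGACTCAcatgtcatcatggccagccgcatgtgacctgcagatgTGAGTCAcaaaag
PDE10A, upstream, chr6:166032548-166032654: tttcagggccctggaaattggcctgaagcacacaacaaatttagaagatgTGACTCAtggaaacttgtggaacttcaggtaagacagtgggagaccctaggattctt

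The middle 200 bases of the widest downstream member, near PYROXD2, and of the next to widest upstream member, near the sodium/proton exchanger gene SLC9A3, show the sequence at the centre of broad members. Capitals mark the AP1 element, which only the PYROXD2 stretch of this pair holds. The members near PYROXD2 and SLC9A3 each overlapped a RefSeq gene.
SLC9A3, upstream, chr5:543141-543340: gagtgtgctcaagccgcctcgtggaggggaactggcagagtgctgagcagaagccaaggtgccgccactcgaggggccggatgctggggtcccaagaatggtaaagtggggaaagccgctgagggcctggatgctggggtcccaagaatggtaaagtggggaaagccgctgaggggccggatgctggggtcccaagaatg
PYROXD2, downstream, chr10:98364796-98364995: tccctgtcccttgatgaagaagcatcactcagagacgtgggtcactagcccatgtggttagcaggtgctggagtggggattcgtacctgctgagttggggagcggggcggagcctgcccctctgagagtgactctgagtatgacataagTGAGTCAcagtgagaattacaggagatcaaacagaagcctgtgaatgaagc

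Short stretches between adjacent members can be nucleosome-free DNA, where the acetylated histones are on either side. A CRE in such a gap is shown for 3 genes, with 30 bases on either side and the element in capitals.
EPHA2, upstream, chr1:16164521-16164588: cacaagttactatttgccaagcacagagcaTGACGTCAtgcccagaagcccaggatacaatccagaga
ITIH5, downstream, chr10:7539261-7539328: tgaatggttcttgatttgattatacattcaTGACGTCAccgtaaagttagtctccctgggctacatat
CDK5RAP2, upstream, chr9:120584178-120584245: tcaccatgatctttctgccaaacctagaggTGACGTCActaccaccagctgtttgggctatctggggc

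Members were more often upstream than downstream of the nearest coding gene, but the sequence open to them was also mostly upstream. Eligible sequence means the hg38 positions that met the rule when each was taken as a single base. A whole peak needs more room than a base, and denylisted regions were not taken out of this sequence. The upstream share of members was 60.8% (58.7 to 62.9), and the upstream share of eligible sequence was 64.3% (201 of 313 Mb). Relative to the sequence available, upstream peaks were therefore slightly sparser: 6.38 peaks per Mb (6.03 to 6.74) upstream against 7.41 (6.91 to 7.93) downstream, a ratio of 0.861 (0.788 to 0.940). Of 23 chromosomes with at least 5 members on each side, 17 were denser downstream. Members covered 0.708% of eligible upstream sequence and 0.877% of eligible downstream sequence.

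The side difference was largest close to the start. Between 3 and 10 kb, the density was 7.28 peaks per Mb upstream (6.57 to 8.04) and 10.8 downstream (9.40 to 12.4), a ratio of 0.672 (0.566 to 0.80). From 10 to 20 kb the values were 6.64 and 7.72 peaks per Mb, and from 20 to 30 kb they were 5.86 and 7.13. The downstream density was 5.12 at 30 to 40 kb, where the upstream density was 5.99, and the ratio intervals of all 4 bins past 10 kb included 1. Upstream density at 40 to 50 kb was 5.15 peaks per Mb and downstream density was 6.30. A downstream peak within 10 kb of a start can only follow a short gene or an alternative start near the gene end, so the genes in that bin are not the same kind of genes on the 2 sides.

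**Figure D1:**
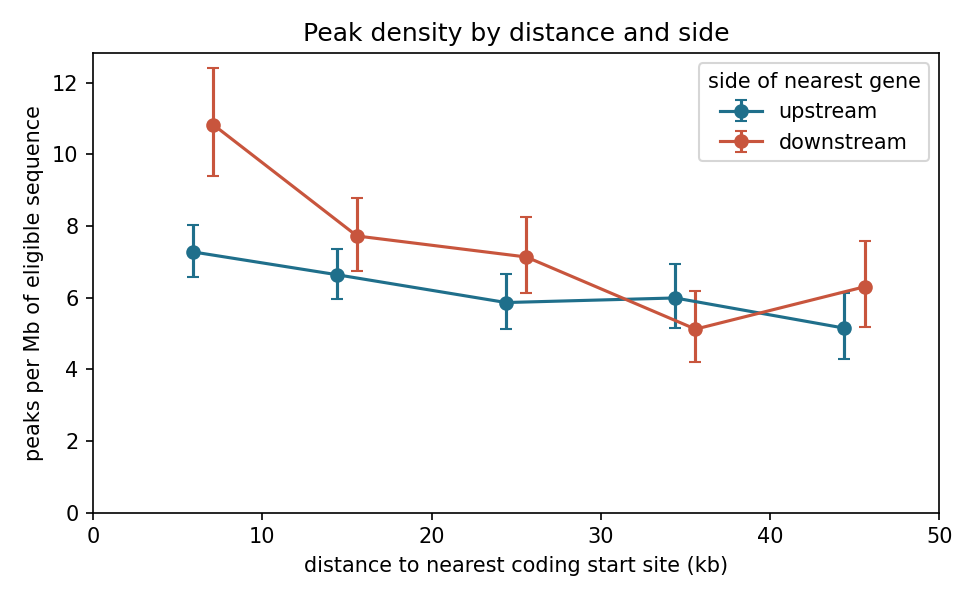
Peaks per Mb of eligible sequence against the distance from the nearest coding start (kb), for members upstream and downstream of that gene, with points at bin centres slightly offset and bars giving exact Poisson 95% intervals. The sides separate in the 3 to 10 kb bin, at 7.28 upstream and 10.8 downstream, and their intervals overlap at 30 to 40 kb (5.99 and 5.12).

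Gene length moved with the side difference. Next to coding genes shorter than 50 kb, there were 7.10 peaks per Mb upstream (6.57 to 7.65) and 7.51 downstream (6.91 to 8.16), a ratio of 0.944 (0.844 to 1.06) that included 1. Next to genes of 50 kb or more, the densities were 5.72 (5.27 to 6.20) and 7.19 (6.34 to 8.13), a ratio of 0.795 (0.686 to 0.924). The 256 downstream members of these long genes were measured from an alternative start inside the gene, because the outermost start lay beyond the 50000-base limit. Upstream members had longer nearest genes, with a median of 44539 bases against 26657 bases for downstream members. The eligible sequence differed in the same direction. Genes under 50 kb were nearest to 96.4 of its 201 Mb upstream and to 76.0 of its 112 Mb downstream.

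The orientation of the flanking genes divided the members further. Of members with a coding gene on both flanks, 614 lay between divergent genes, 1074 between genes on the same strand (tandem) and 420 between convergent genes. Within tandem intervals the density was 6.28 peaks per Mb upstream (5.81 to 6.78) and 7.06 downstream (6.39 to 7.78), a ratio of 0.889 (0.785 to 1.01). Divergent intervals held 6.55 upstream members per Mb (6.04 to 7.08), and convergent intervals held 7.79 downstream members per Mb (7.06 to 8.57). The convergent density was 1.19 times the divergent density (1.05 to 1.35).

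Acetylation at the promoter of the nearest gene went with a larger difference than the side did. The nearest coding gene had a promoter peak for 1689 members (80.0%, 78.2 to 81.7), where 63.4% of all coding genes had one and 56.9% of eligible sequence lay nearest to such a gene. Density was 9.49 peaks per Mb (9.04 to 9.96) where the nearest gene had a promoter peak and 3.13 (2.84 to 3.44) where it had none, a ratio of 3.04 (2.73 to 3.39). The ratio was 2.93 upstream (2.56 to 3.37) and 3.21 downstream (2.70 to 3.84). The promoter-peak share was 79.7% upstream and 80.5% downstream, with overlapping intervals (77.4 to 81.8 and 77.7 to 83.1). For intergenic peaks beyond 50000 bases, the share was 71.9% (69.5 to 74.1). It was higher than among members for intragenic peaks, at 88.9% (88.2 to 89.6). For all peaks, which include the promoter-associated ones, it was 92.1%.

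Among genes shorter than 50 kb, both sides were close to each other within each promoter class. With a promoter peak, the density was 11.4 upstream (10.4 to 12.4) and 11.7 downstream (10.6 to 12.9). Without one, it was 3.36 upstream (2.88 to 3.90) and 3.59 downstream (3.02 to 4.23). The upstream to downstream ratio was 0.972 (0.853 to 1.11) in the first class and 0.935 (0.745 to 1.18) in the second. Over genes of all lengths, the ratio was 0.838 (0.759 to 0.925) with a promoter peak and 0.918 (0.751 to 1.12) without one.

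**Figure D2:**
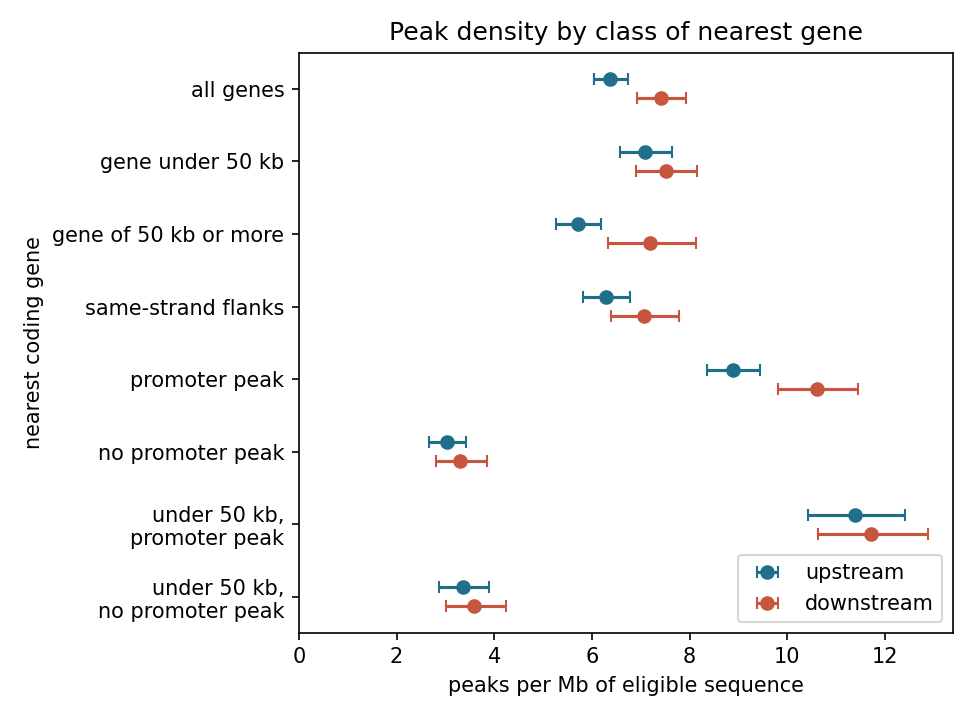
Peaks per Mb of eligible sequence upstream and downstream of the nearest coding gene, by gene length, flank orientation and promoter peak, with exact Poisson 95% intervals. The largest contrast is between genes with and without a promoter peak (8.89 and 3.03 upstream, 10.6 and 3.30 downstream), and the sides lie close together for genes under 50 kb.

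Most members were narrow. The median width was 790 bases (750 to 830), with quartiles of 530 and 1385 bases and a range from 400 to 10630 bases. Promoter-associated peaks had a median of 1270 bases, while intragenic peaks (770) and farther intergenic peaks (790) were close to the members. Upstream members had a median of 770 bases (730 to 820) and downstream members 820 bases (750 to 860), a difference of -50 bases (-121 to 21.1) whose interval included 0. The median was wider downstream on 12 chromosomes and narrower on 11, and members over 3000 bases made up 4.28% upstream (3.31 to 5.53) and 5.80% downstream (4.41 to 7.61), beside 7.73% of all peaks. Members whose nearest gene had a promoter peak had a median of 810 bases (770 to 860), and the others had 710 bases (670 to 770).

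**Figure D3:**
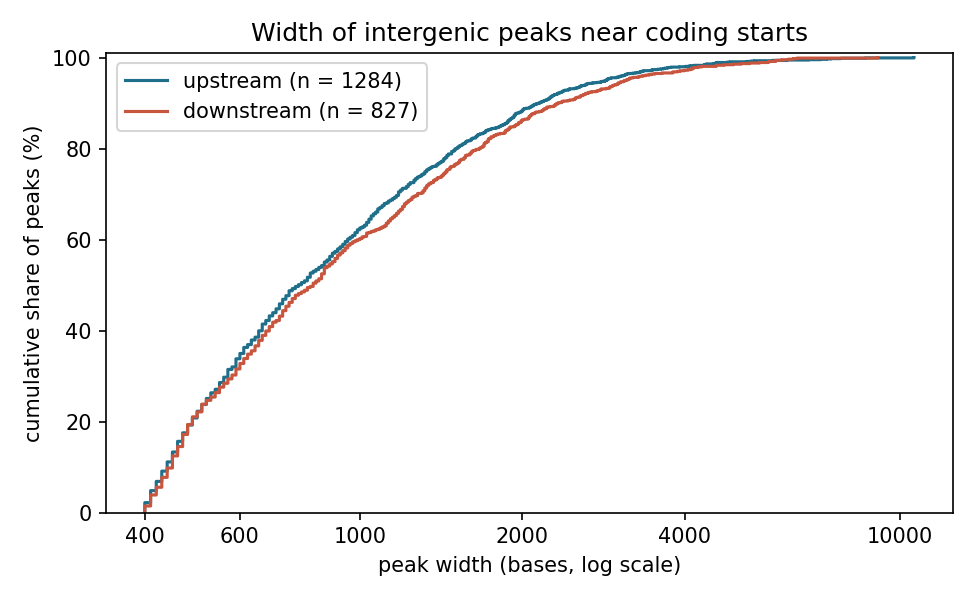
Cumulative share (%) of upstream (n = 1284) and downstream (n = 827) members by peak width in bases on a log axis, each line rising from the minimum width of 400 bases. The lines run close together, with medians of 770 bases upstream and 820 bases downstream.

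Members lay a median of 17580 bases from the coding start, at 16773 bases upstream (15812 to 17872) and 19257 bases downstream (17596 to 20662). Downstream members lay a median of 9410 bases (8436 to 10210) past the end of the gene itself, and 195 of them (23.6%) lay within 3000 bases of it. The rule limits this distance, since such a member lies past the gene end yet within 50000 bases of a start. Eligible sequence was not measured by distance to the gene end. The members just inside the 50000-base limit were those near CAB39L (49977 bases), SMURF2 (49974) and TLE1 (49921). Just outside were peaks near CHRFAM7A (50037), NDUFB4 (50108) and VDAC1 (50176). At the 3000-base limit, measured to a start of any gene type, the members near YWHAG (3003 bases), DRD4 (3004) and NYX (3013) were just inside and peaks near ADAD2 (2998), HNRNPL (2984) and ADGRG1 (2982) just outside.

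Members often had neighbours, as other peaks did. Another peak lay within 1000 bases of 39.1% of members (37.9% upstream and 41.0% downstream) and within 12.5 kb of 72.0%. Within 1000 bases the share was 36.1% of all peaks, 48.2% of intragenic peaks and 42.8% of farther intergenic peaks. Within 12.5 kb it was 64.0%, 76.2% and 61.6%, in the same order. When peaks within 12.5 kb of each other were stitched, the distance used for super enhancers in the study, 39.9% of members joined a promoter-associated peak. That share was 42.2% upstream (39.5 to 44.9) and 36.4% downstream (33.2 to 39.7), against 43.0% of intragenic peaks and 10% of farther intergenic peaks. Regions of 5 or more peaks held 462 members (21.9%), and 28.0% of members remained alone. The share alone was 36.0% of all peaks, 23.8% of intragenic peaks and 38.4% of farther intergenic peaks.

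The members' base composition lay between that of promoter-associated and farther intergenic peaks. Median GC content was 49.7% for members, 58.2% for promoter-associated peaks, 47.5% for intragenic peaks and 46.0% for farther intergenic peaks. Upstream members had 49.0% GC (48.6 to 49.4) and downstream members 51.1% (50.3 to 52.0). CpG dinucleotides numbered 1.74 per 100 bases in members and 5.27 in promoter-associated peaks. GENCODE had no gene at these positions by the rule, but 345 members (16.3%) overlapped a gene of the RefSeq annotation, of which 241 overlapped a long non-coding RNA and 87 a protein-coding gene.

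Members were spread over many genes. Coding genes nearest to at least 1 member numbered 1345, which was 6.72% of all coding genes. A member was nearest to 1054 of 12685 genes with a promoter peak (8.31%, 7.84 to 8.80) and to 291 of 7322 without one (3.97%, 3.55 to 4.45). Counted by gene identifier, 887 genes had 1 member, 286 had 2 and 173 had 3 or more, and the last group held 652 members. Only upstream members were found at 782 genes, only downstream members at 496 and members on both sides at 68.

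DLK1, which encodes a Notch-related membrane protein and is imprinted, was nearest to the most members, 12 in all on chromosome 14. The 5 upstream members were 450 to 1710 bases wide and lay 10405 to 35915 bases from the start. The 7 downstream members lay 25861 to 40821 bases from the start, and the last of them spanned 5890 bases, where the next widest downstream spanned 1320 bases. TMEM154, a transmembrane protein gene on chromosome 4, had 10 members, all upstream between 15769 and 43619 bases and 560 to 2010 bases wide, and it had no promoter peak. Of 292 genes without a promoter peak that were nearest to a member, 30 had 3 or more members. Among all 1346 genes nearest to a member, counted by identifier, 173 did. PTGES, the prostaglandin E synthase gene, had 6 upstream and 2 downstream members, of which the widest spanned 4850 and 4390 bases, both upstream.

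ADGRD1, an adhesion G protein-coupled receptor gene, had 8 members in an upstream stretch between 19217 and 28257 bases. Each of them was 440 to 1940 bases wide, and none lay downstream. LGALS3, which encodes galectin-3, had 7 upstream members with 13140 bases in sum, the widest of 4520 bases. QPCT, a glutaminyl cyclase gene, and BLK, a Src-family kinase gene, had 6 members each that were all downstream. The QPCT member of 5080 bases was the nearest to its start, at 6350 bases. That QPCT member and the widest LGALS3 member each overlapped a RefSeq gene. SFMBT2 and SYT14 had 6 members each that were all upstream. TBPL2 and ZFYVE16 also had 6 each, all upstream, and came after these 10 genes by the summed width of their members.

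**Figure D4:**
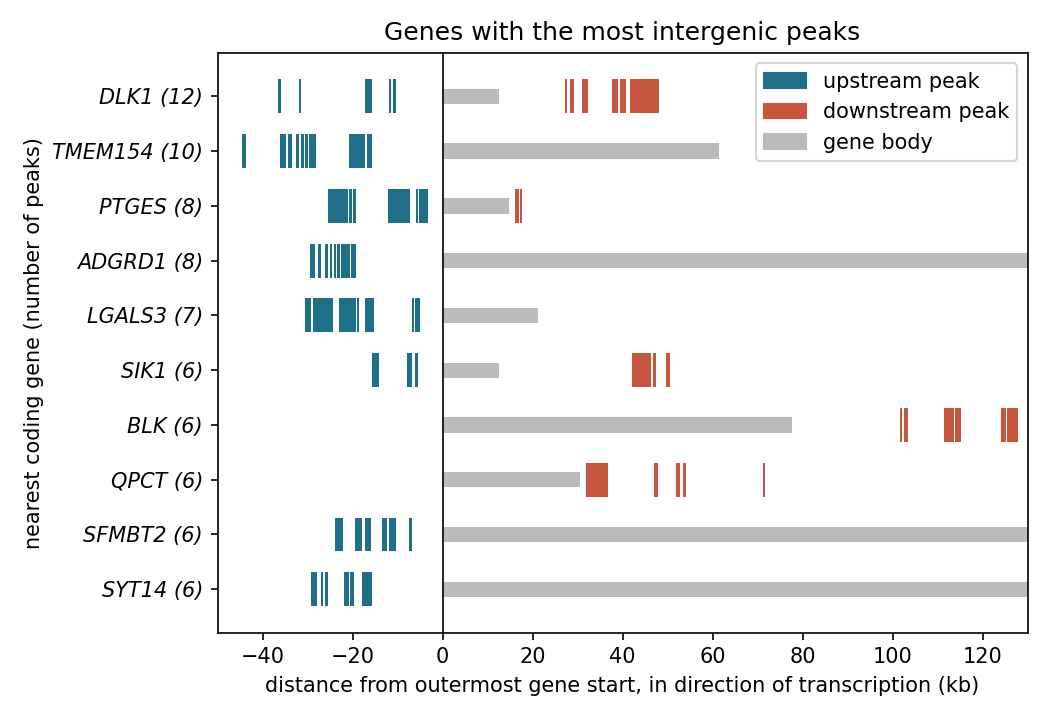
Members (blue upstream, red downstream, to scale) around 10 coding genes with the most members (ties at 6 taken by summed width), as the distance in kb from the outermost gene start in the direction of transcription, with the gene body in grey cut at the right edge. DLK1 (5 upstream, 7 downstream), PTGES (6 and 2) and SIK1 (3 and 3) have members on both sides, and the others on 1 side alone.

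The widest upstream member, 10630 bases near the translation repressor gene EIF4EBP1, lay 23814 bases from the start. It was followed by members near SLC9A3 (8640 bases), the calcium pump gene ATP2C2 (7780), the kinase gene MKNK2 (7460), SAP18 (7330), EIF3CL (7140), the phosphodiesterase gene PDE10A (6780), the retinoid receptor gene RXRG (6180), ZNF431 (5820) and the stress-response gene DDIT4 (5380). ATP2C2 was the only gene among these 10 without a promoter peak. In the RefSeq annotation the EIF3CL member overlapped EIF3CL itself, so it is intergenic in GENCODE alone. Downstream, the widest member spanned 9110 bases at PYROXD2, 18986 bases from the start. Members of 6450 and 6220 bases followed NCAPH, a condensin subunit gene, within 1 convergent interval. The others lay near the leukotriene receptor gene CYSLTR2 (6350), the potassium channel gene KCNA5 (6040), EIPR1 (5900), DLK1 (5890), CDK5RAP3 (5720), TRMT61A (5710) and CIDEC (5500). KCNA5 and CDK5RAP3 had no promoter peak. The EIPR1 and TRMT61A members in this list overlapped a RefSeq gene, as the PYROXD2 member did.

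Genes of the cAMP response were nearest to a member in 8 of 30 cases (26.7%, 14.2 to 44.4), beside 6.72% of all coding genes and 63.4% with a promoter peak, which 27 of the 30 had. Among all coding genes with a promoter peak, 8.31% were nearest to a member. SIK1, a kinase gene induced by cAMP, had 6 members. Its upstream members of 790, 1270 and 1610 bases lay 5410, 6690 and 14100 bases from the start, and the last held the CRE printed above. Its downstream members of 4150, 680 and 930 bases lay 34932, 39652 and 42442 bases from the start. PPARGC1A, a transcriptional coactivator gene, had 5 upstream members between 15912 and 41222 bases, all from 490 to 1840 bases wide. In the RefSeq annotation all 5 of them lay inside PPARGC1A, whose model there begins farther out. With members in RefSeq genes left out, a choice made after the data were seen, PPARGC1A was lost and 7 of the 30 genes were nearest to a member, beside 5.82% of all coding genes. PDE10A and PDE4B, which encode cAMP-degrading enzymes, had 2 members each, upstream and downstream respectively. NR4A2, PER1, AKAP12 and PCK1 had 1 member each, of 740, 450, 1700 and 1720 bases.

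ATF/CREB and AP1 genes were nearest to a member in 5 of 30 cases (16.7%, 7.34 to 33.6) and 25 of the 30 had a promoter peak, beside 6.72% and 63.4% of all coding genes. The lower end of the interval was near the share of all genes, and the interval included the 8.31% among all genes with a promoter peak. No list share was adjusted for the eligible sequence near each gene. FOSL2, which encodes an AP1 subunit, had upstream members of 3200 and 1480 bases, and the wider held the CRE printed above. JUND, another AP1 subunit gene, had 1 upstream member of 4790 bases at 8109 bases from the start, which overlapped a RefSeq gene. With members in RefSeq genes left out, 4 of the 30 genes were nearest to a member. CREBL2 had upstream members of 730 and 890 bases. CREM, a cAMP-responsive transcription factor gene, had downstream members of 700 and 910 bases at 19072 and 21232 bases. FOS had 1 upstream member of 490 bases at 47806 bases, near the distance limit.

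Melanocyte and neural crest genes were nearest to a member in 5 of 32 cases (15.6%, 6.86 to 31.8) and 21 had a promoter peak (65.6%), beside 6.72% and 63.4% of all coding genes. The lower end of the first interval nearly reached the share of all genes, and the second share was close to it. EDNRB, the endothelin receptor gene of melanocyte precursors, had 3 downstream members of 690, 440 and 2000 bases at 11488, 47438 and 48428 bases. TYRP1, a melanin synthesis gene, had upstream members of 430 and 740 bases and no promoter peak. GPNMB, a melanosomal glycoprotein gene, had 1 upstream member of 1040 bases, SNAI2 had 1 upstream of 1550 bases and TFAP2A had 1 downstream of 500 bases. The members near EDNRB and GPNMB overlapped RefSeq genes, and 3 of the 32 genes were nearest to a member without such peaks. The lists share genes, so CREM, FOS and TFAP2A are each counted under more than 1 of them.

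Genes of other tissues served as comparison lists. Skeletal muscle genes were nearest to a member in 1 of 25 cases (4%, 0.710 to 19.5), an interval that included the 6.72% of all coding genes. That gene, TNNI2, had 1 downstream member of 560 bases, which overlapped a RefSeq gene. Olfactory receptor genes were nearest to a member in 7 of 416 cases (1.68%, 0.817 to 3.43). A promoter peak was found at 9 of the 25 muscle genes (36%) and 4 of the 416 olfactory receptor genes (0.962%), beside 63.4% of all coding genes. Of 8 genes the study named at human super enhancers, all with a promoter peak, only TFAP2A was nearest to a member (12.5%, 2.24 to 47.1). Of 9 genes it named as raised, all with a promoter peak, CREM, FOS and TCEAL8 were nearest to a member (33.3%, 12.1 to 64.6). TCEAL8 had 1 downstream member of 1070 bases at 5805 bases. The first of these lists was chosen by the study from super enhancers of these libraries and is no independent measure. The second came from RNA-seq and fusion binding in the same study.

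The share of peaks that held a motif was read in the central 400 bases of each peak on both strands and set beside 765478 windows of 400 bases in eligible sequence outside peaks. The full CRE, TGACGTCA, was found in 10 member windows (0.474%, 0.258 to 0.870) and in 0.142% of background windows, a ratio of 3.33 (1.81 to 6.12). It was held by 0.265% of intragenic and of farther intergenic peak windows, and by 1.26% of promoter-associated ones. Upstream members had 8 of these windows (0.623%, 0.316 to 1.22) and downstream members 2 (0.242%, 0.0663 to 0.877), so the side intervals overlapped.

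Member windows were richer in GC than background windows, with medians of 50% and 42.25%. When background windows were weighted to the GC content of the members, an alternative chosen after the data were seen, the ratio for the full CRE was 2.71 (1.47 to 4.98). The GC-rich TFAP2 motif GCCNNNGGC went from a ratio of 2.58 to 1.13 (1.02 to 1.24) under the same weighting. For the E-box CACGTG the ratio moved from 1.26 to 0.922 (0.764 to 1.11), and for the RUNX motif TGTGGTT from 0.826 to 1.09 (0.926 to 1.29).

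Other motifs were close to the background in 1 or both readings. TGANNTCA, a loose form of which the full CRE is a case, was found in 23.2% of member windows and 23.2% of background windows. The AP1 element TGAGTCA was found in 6.40% and 6.30%. The M-box core TCATGTG, bound by MITF, had a ratio of 0.638 (0.517 to 0.785) and of 0.855 (0.693 to 1.05) after weighting for GC. The SOX motif ACAAAGG had ratios of 0.941 (0.807 to 1.10) and 1.22 (1.04 to 1.41).

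**Figure D5:**
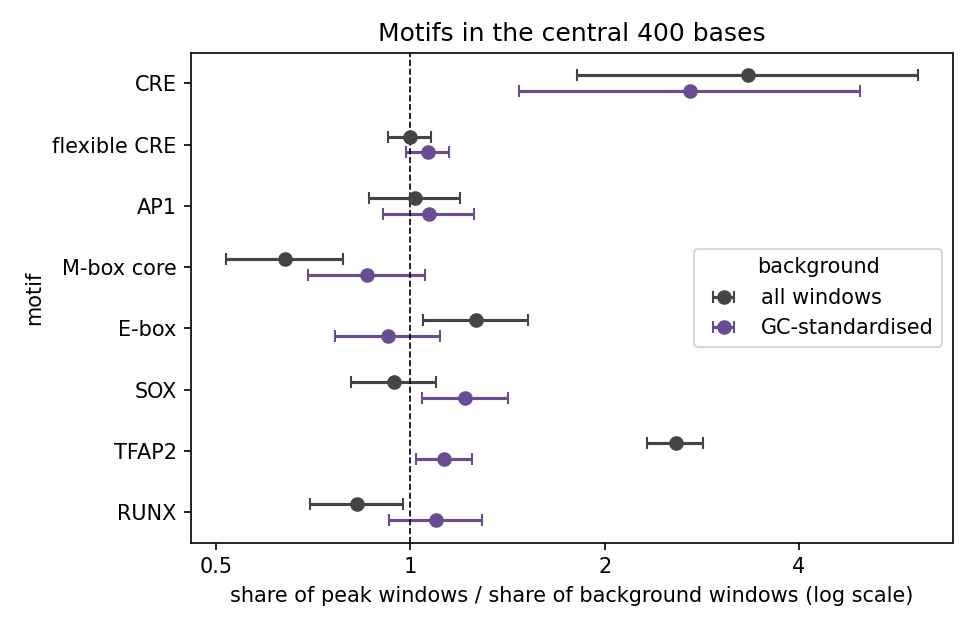
Share of the members' central 400-base windows that held each motif divided by the share of background windows, on a log axis, with 95% intervals and a dashed line at a ratio of 1. The full CRE lies at 3.33 with all background windows and at 2.71 with GC-standardised ones, while the TFAP2 motif moves from 2.58 to 1.13.

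Over whole members, the full CRE occurred 29 times in 28 members, 17 upstream and 11 downstream (1.32% and 1.33%). This was 12.1 per Mb (8.08 to 17.3), beside 3.68 per Mb of eligible sequence outside peaks. Whole members were searched, so a wider member offered more sequence for a match. The median width was 1950 bases for these 28 members and 1400 for those with the AP1 element, beside 790 for all members. Of the 28, 19 (67.9%) had a nearest gene with a promoter peak, beside 80.0% of all members. No interval was computed for that small group, and the difference was not tested. SRRM3 was nearest to the member with 2 occurrences, and the members near PTGES, EIF4EBP1, FOSL2 and SIK1 held 1 each. The AP1 element was found in 347 members (16.4%), with 16.5% upstream and 16.3% downstream.

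Gaps of 50 to 1000 bases between adjacent members numbered 393, of which 240 were upstream and 153 downstream by the side of the left member, with a median length of 360 bases and 42.9% GC. The AP1 element occurred 50 times in 49 of them, at 312 per Mb (232 to 411), beside 177 per Mb within members (160 to 195) and 167 per Mb of eligible sequence outside peaks. In upstream gaps the rate was 375 per Mb (262 to 519). In downstream gaps it was 218 per Mb (119 to 366), an interval that included the rate outside peaks. Other motifs were also denser in the gaps than outside peaks. The SOX motif stood at 362 per Mb of gap (275 to 468), beside 197 within members and 203 outside peaks, and the RUNX motif at 325 (242 to 426), beside 170 and 200. In upstream gaps the SOX (306 to 579) and RUNX (236 to 482) intervals lay above the outside values. In downstream gaps they included them (154 to 424 and 178 to 463). The M-box core stood at 237 (168 to 326), beside 126 and 164. GCCNNNGGC stood at 237 (168 to 326) too, below the 491 within members and above the 168 outside peaks. The full CRE occurred in 5 gaps (31.2 per Mb, 10.1 to 72.8), those near EPHA2, ITIH5 and CDK5RAP2 printed above and 1 each near BLK and ENPP2. A match to a motif is a description of the sequence, and no binding was measured.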

How the data were processed

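H3K27ac ChIP-seq of 3 H3K27ac and 3 input samples of SU-CCS-1 was analysed from 1 deposited list of 30784 peaks. Per the submitters' processing notes and the study's methods, reads were mapped by the authors with BWA-MEM (0.7.10-r789) on hg38, duplicates were dropped with samtools, and peaks came from MACS2 (2.2.6) in broad mode against input, less denylisted regions. The deposited values are start and end positions alone. Whether replicates were pooled before or after calling is not given in the sources used here, and the depth per sample cannot be read from the list.

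Peaks were placed against GENCODE version 44 by their nearer edge. A gene had a promoter peak if a peak lay within 3000 bases of any of its starts. Eligible sequence was counted on a grid of 10 bases, assembly gaps left out. Shares have Wilson intervals, densities exact Poisson intervals, ratios of densities exact conditional intervals and medians order-statistic intervals, all at 95%. The interval of a difference in medians combines those of both medians, and intervals of motif share ratios treat the background as fixed. Gaps between members were 50 to 1000 bases long. Motif matches were counted on both strands. RefSeq overlaps used the RefSeq gene table on hg38. Genes named are those of the 10 widest members per side, the 10 genes with the most members, list genes nearest to a member, the members beside each limit and genes whose sequence is printed. SRRM3, ENPP2 and the other genes with a full CRE in a member or a gap, with TBPL2 and ZFYVE16, were named after their values were seen. The members and lists were chosen with earlier results of these data known. The placement and density steps were tested on simulated data. Python 3.11.15, numpy 2.4.6, pandas 2.3.3, SciPy 1.17.1 and pyfaidx 0.9.0.4 were used.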

Additional observations from a re-analysis of the deposited data

How the results depend on the processing

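Of 99 alternatives over 20 results, 58 left a share, ratio or difference within its interval and 19 left a count within 1.5 times (1605 to 2678 members, 998 to 1606 nearest genes). Another 20 moved the value further, and 2 turned a motif ratio whose main interval excluded 1 to the other side of 1. A change of direction was not counted as such where the main interval included 0 or 1. With the distance limit at 25 kb, members numbered 1404, the density ratio (upstream over downstream) was 0.784 and the difference in median width was 30 bases instead of -50, with an interval that included 0 (-55.1 to 115). With only the widest 50% of peaks, there were 763 members and 595 nearest genes, an upstream share of 58.6%, a density ratio of 0.784 and a promoter-peak share of 82.7%. The first drop follows from the smaller distance and the second from fewer peaks; the cause of the changes in ratio and share was not tested. The promoter-peak share was 81.9% with a start-site window of 1000 bases and 77.6% with the outermost start of each gene alone. In the 1000-base setting, the window that defines a promoter peak was left at its main value. A member added inside that main window of a coding start is then itself the promoter peak of its gene. Part of the 81.9% therefore holds by definition. The upstream share was 75.1% with outermost starts, where 77.4% of eligible sequence was upstream, and 68.0% with starts of transcripts of type protein_coding, where 71.2% was. Next to genes under 50 kb alone, chosen after seeing the data, the density ratio was 0.944. Weighting the background for GC content, also chosen after seeing the data, turned the ratio for CACGTG to 0.922 and for TGTGGTT to 1.09, and moved that for TCATGTG to 0.855, for ACAAAGG to 1.22 and for GCCNNNGGC to 1.13. In central windows of 200 bases, ACAAAGG stood at 0.772 and GCCNNNGGC at 3.01, and over whole peaks GCCNNNGGC stood at 2.93. With RefSeq gene bodies also excluded, 1766 members remained, 1056 upstream and 710 downstream, and 0 of 25 skeletal muscle genes were nearest to one. No paired analysis was possible because the deposited positions carry no replicate column, and for the same reason no replicate could be left out in turn.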
